A study of Mus musculus with 9 samples.

Results

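Collagen chain genes encode the α chains from which the collagens, the structural proteins of the extracellular matrix, are assembled. They were taken here as all genes whose mouse symbol consists of Col, a type number, the letter a and a chain number, which gave 44 of the 56289 genes in the expression table. RNA sequencing of poly(A) RNA was carried out on 9 libraries of cells labelled RAW264.7, a macrophage-like line from the mouse strain BALB/c, in 3 groups of 3 libraries. The Con group is labelled untreated, with PBS in place of the agents in the study's description of the drug treatment, the TNF-α group received recombinant human TNF-α (20 ng/ml, 24 h), and the TNF-α+WBT group received the same TNF-α together with Wang Bi tablet (WBT, 1.0 μg/ml, 24 h), a Chinese herbal preparation used in rheumatoid arthritis. The labels write WBP for the agent of the third group, which is taken here to be WBT. The study set out to find genes that respond to TNF-α and genes through which WBT may act on the stimulated cells.

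A collagen molecule is a rod of 3 α chains wound around each other, and every chain carries a long stretch in which glycine returns at a fixed spacing, because glycine has no side chain to crowd the centre of the rod. Fibrillar collagens build the tension-bearing fibrils of skin, tendon and bone, type IV collagens form the network of basement membranes, and type VI collagens form beaded filaments around cells. FACIT collagens sit on fibril surfaces, short-chain collagens form hexagonal lattices, multiplexins lie in basement membrane zones, and transmembrane collagens stay anchored in the plasma membrane. Fibroblasts and related matrix-producing cells are the main source of fibrillar collagen, whereas macrophages produce little of it. In rheumatoid joints, TNF-α is a main inflammatory cytokine and the collagen matrix of cartilage and bone is lost.

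The macrophage label was checked against marker genes, and the data went against it. Of 14 macrophage genes only Cd14, a lipopolysaccharide co-receptor, exceeded 1 FPKM in all 9 libraries, with a mean of 5.25 FPKM. Ptprc, Spi1, Itgam, Adgre1, Tyrobp, Ctss and Cybb, which define the lineage, were listed at 0 in every library, and the 14 genes summed to between 6.0 and 8.6 FPKM per library. FPKM, the fragment count of a gene scaled by the length of its transcripts and the size of the library, can be compared between genes. In the same libraries 11 of 14 fibroblast genes that are not collagens exceeded 1 FPKM throughout, led by S100a4 at a mean of 1177 FPKM, while Lum was listed at 0. Of 12 Schwann cell genes 9 did so. The corresponding counts were 2 of 9 for chondrocyte genes (Acan and Matn1 at 0), 2 of 8 for osteoblast genes (Ibsp and Bglap2 at 0), 1 of 5 for smooth muscle, 1 of 7 for endothelium (Tie1 at 0) and 0 of 7 for epithelium (Krt14 and Krt19 at 0), led by Sox6, Spp1, Acta2, Egfl7 and Krt8 at means of 12.5, 88.2, 30.7, 1.77 and 0.736 FPKM. The samples are therefore named below by their treatment only.

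The estimated depth was 20222470 to 26031162 fragments in Con, 18883610 to 22416434 in TNF-α and 16840629 to 19822038 in TNF-α+WBT. Collagen chain genes were read at very different precision at this depth, from at least 94064 estimated fragments per library for Col1a1 to at most 3 fragments in every library for 5 members. The libraries of a group are biological replicates in the study's description, and the sample labels do not add whether they came from separate cultures. Groups were compared with limma on log2(FPKM + 0.1), a scale that understates the changes of genes with low values, and a gene was called when its Benjamini-Hochberg adjusted p over all 25417 tested genes was under 0.05. An exact permutation test of 3 against 3 libraries cannot give a p below 0.1 and was not used. In bulk samples such as these, fewer cells of a type and less RNA per cell cannot be told apart.

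Collagen transcripts were abundant in all groups. The 44 genes summed to 3057, 3328 and 3110.5 FPKM in Con, 3539, 3567 and 3557 in TNF-α and 3399.5, 3468 and 3404 in TNF-α+WBT, which was 0.735%, 0.820% and 0.791% of all FPKM on average. Every TNF-α library lay above every TNF-α+WBT library, and these lay above every Con library. The mean sums were 3165 ± 143.5 (SD, n = 3), 3554 ± 14.1 (SD, n = 3) and 3424 ± 38.1 (SD, n = 3) FPKM, a ratio of 1.12 between TNF-α and Con and of 0.963 between TNF-α+WBT and TNF-α, given as descriptions without a test. Con replicate 2 had the highest Con value for 16 of the 17 members with a mean of at least 5 FPKM, and it also had the highest Con sum. Averaged over the 9 libraries, 8 members reached at least 100 FPKM, 17 at least 5 FPKM, 5 lay from 1 to under 5 FPKM and 22 below 1 FPKM. Col1a1, Col3a1 and Col5a2 ranked 57, 98 and 144 among all genes, and the 5 most abundant members (these 3 with Col1a2 and Col18a1) held 75.9% of the collagen FPKM.

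**Figure D1:**
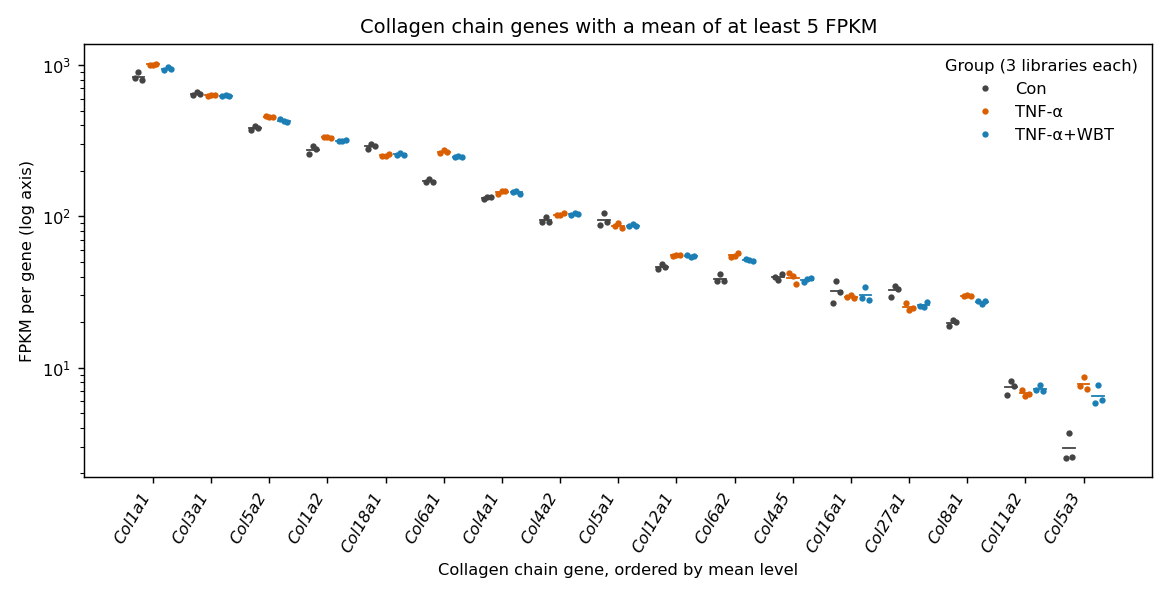
FPKM per gene (log axis) of the 17 collagen chain genes averaging 5 FPKM or more, ordered by mean level; each point is 1 library, each line the mean of 3 libraries, and colours mark Con, TNF-α and TNF-α+WBT. Col6a1, Col6a2, Col8a1 and Col5a3 show TNF-α libraries clear of the Con libraries, while the Con and TNF-α libraries of Col3a1 overlap.

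In answer to which collagen genes responded to TNF-α, transcripts of 8 of the 42 tested members rose and those of 2 fell. Col5a3, Col6a1, Col8a1, Col6a2, Col1a1, Col1a2, Col5a2 and Col12a1 rose, by log2 fold changes of 1.40 to 0.25, and Col27a1 and Col18a1 fell by 0.36 and 0.20. Among all 25417 tested genes 2.94% rose and 1.93% fell by the same rule. Of the 17 members with a mean of at least 5 FPKM 10 were called, against 9.47% of the 9117 tested genes with such a mean. The median log2 fold change was 0.14 over the 42 members and 0.003 over all tested genes, with 26 members above 0 and 16 not. By the thresholds of the study (p under 0.05 before adjustment and more than a 2-fold change), applied here to the limma fold of FPKM + 0.1, Col5a3 and Col9a2 were higher and no member was lower, against 2.42% of all tested genes in either direction. With the fold taken as the ratio of mean FPKM instead, Col9a1 (2.46), Col6a4 (2.32) and Col10a1, which had at most 4.0 estimated fragments per library, would also exceed it at such a p. All 3 TNF-α libraries lay above all 3 Con libraries for 20 members and below them for 3, where this held for 11.1% and 10.2% of all tested genes. Of the 44 members, Col19a1 and Col26a1 did not pass the filter on low values and were not tested. By class, 4 of 11 fibrillar genes rose and 1 fell, 2 of 6 type VI genes, 1 of 3 short-chain genes and 1 of 8 tested FACIT genes rose, and 1 of 2 multiplexin genes fell. None of 6 type IV genes, of 4 transmembrane genes, or of the single tested type VII and type XXVIII genes was called by limma, where 2 of these, both of type IV, had an unadjusted p under 0.05, as had 16.1% of all tested genes.

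**Figure D2:**
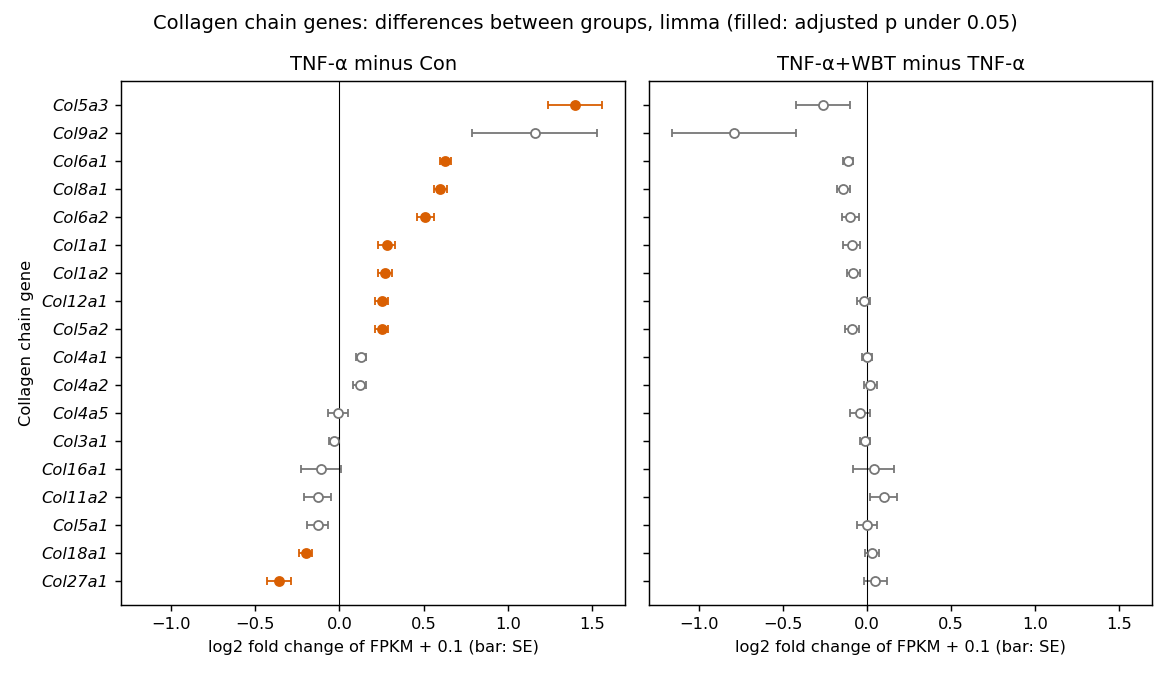
Log2 fold change of FPKM + 0.1 from limma for 18 collagen chain genes, TNF-α minus Con on the left and TNF-α+WBT minus TNF-α on the right; points are estimates, bars are 1 SE on each side, and filled points have an adjusted p under 0.05. The left panel has 10 filled points, from Col5a3 at 1.40 to Col27a1 at -0.36, and the right panel has 0 filled points.

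Type I collagen, the main protein of bone, tendon and skin, is made of chains from Col1a1 and Col1a2. Col1a1 measured 815, 901 and 791 in Con, 1004, 1007 and 1021 in TNF-α and 925, 974 and 947 in TNF-α+WBT FPKM. The groups did not overlap, with TNF-α highest and Con lowest. In Con the FPKM values of Col1a2 were 259, 293 and 278, in TNF-α 334, 334 and 329 and in TNF-α+WBT 314, 314 and 318. Here too the TNF-α libraries were highest and the Con libraries lowest, without overlap. From Con to TNF-α, Col1a1 rose by 0.28 ± 0.05 (SE) on the log2 scale (limma adjusted p = 0.0173) and Col1a2 by 0.27 ± 0.04 (adjusted p = 0.0101), higher in 3 of 3 libraries for both. The call of Col1a1 was lost when Con replicate 1 or 3 or any TNF-α library was left out (adjusted p 0.0529 to 0.0674), with only the 2 groups compared (0.0579) and without the intensity trend (0.0914). That of Col1a2 was lost without the trend (0.0855) and with quantile normalization (0.327). Type III collagen, which runs with type I in elastic tissues, is a homotrimer of the chain from Col3a1. FPKM values of Col3a1 were 633, 668 and 639.6 in Con, 625, 638 and 631 in TNF-α and 625, 634 and 627 in TNF-α+WBT. All 3 groups overlapped, and the difference between TNF-α and Con was -0.03 ± 0.03 (SE; adjusted p = 0.698). The Col3a1 to Col1a1 ratio of FPKM was 0.776 ± 0.0339 in Con, 0.624 ± 0.00821 in TNF-α and 0.663 ± 0.0127 in TNF-α+WBT (SD, n = 3). The annotated gene Gm47302 shares exon sequence with Col3a1 on the same strand, so fragments may have been divided between them.

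Type V collagen chains, which enter the core of type I fibrils and limit their width, come from Col5a1, Col5a2 and Col5a3. Values of Col5a3 were 2.55, 3.69 and 2.56 FPKM across Con, 7.58, 8.62 and 7.23 across TNF-α and 5.82, 7.64 and 6.15 across TNF-α+WBT. All TNF-α and TNF-α+WBT libraries exceeded all Con libraries. Col5a3 rose by 1.40 ± 0.16 (SE) with TNF-α (adjusted p = 0.00154), the largest log2 fold change among the called members, on 304 to 1067 estimated fragments per library, and this call was made under each alternative setting. Col5a2 transcripts stood at 369.7, 397 and 382 FPKM in Con, 459.6, 454 and 455 in TNF-α and 441, 425 and 419.8 in TNF-α+WBT. The 3 groups were apart, with Con lowest and TNF-α highest. Col5a2 rose by 0.25 ± 0.04 (SE; adjusted p = 0.0044). For Col5a1 the libraries gave 88.0, 105 and 92.3 FPKM in Con, 86.9, 89.8 and 84.0 in TNF-α and 85.9, 88.5 and 85.8 in TNF-α+WBT. The groups overlapped, Con replicate 2 was the highest library, and the difference between TNF-α and Con was -0.13 ± 0.06 (SE; adjusted p = 0.374). The annotated genes 2810430I11Rik and Gm13372 overlap exons of Col5a1 on the opposite strand, and whether the quantification used strand is not stated. The same limit holds for other genes with such overlaps, among them Col4a1, Col4a2, Col9a3, Col10a1, Col15a1, Lox, Fkbp10, Ddr2, Plod2 and Colgalt1.

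Col5a2 has a coding transcript and shorter annotated transcripts that keep introns. The coding transcript Col5a2-201 measured 358, 377 and 369 FPKM in Con, 396, 404 and 389 in TNF-α and 398, 407 and 405 in TNF-α+WBT. Col5a2-203, a transcript of 1970 bases with a retained intron, measured 2.99, 11.2 and 4.65 FPKM in Con, 53.9, 41.4 and 57.2 in TNF-α and 34.5, 9.81 and 4.92 in TNF-α+WBT. The coding transcript was lowest in Con and overlapped between the treated groups, whereas the retained-intron transcript was highest in the TNF-α libraries and varied most within TNF-α+WBT. When only protein-coding transcripts were summed, a setting chosen after seeing the data, the Col5a2 difference between TNF-α and Con was 0.11 with an adjusted p of 0.107, and without the intensity trend the call was lost as well (adjusted p = 0.0692). The division of a gene between transcripts is an estimate of the quantification software.

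**Figure D3:**
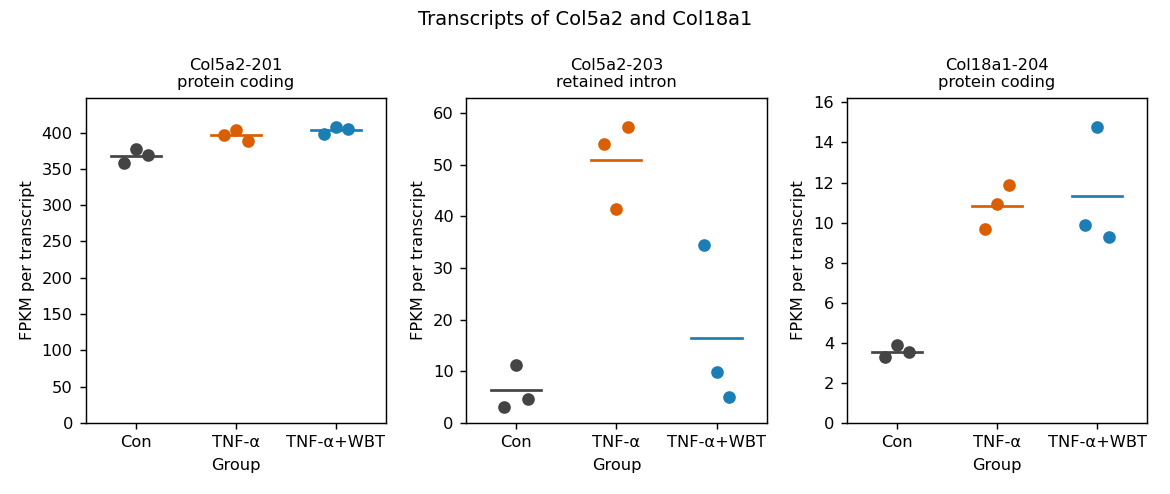
FPKM per transcript in each library for the coding transcript of Col5a2 (left), its retained-intron transcript (middle) and a short coding transcript of Col18a1 (right), in Con, TNF-α and TNF-α+WBT; points are libraries, lines are means of 3, and each axis starts at 0. Col5a2-203 reaches 41.4 to 57.2 FPKM in TNF-α and at most 11.2 in Con.

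Of the remaining fibrillar genes, Col11a2 encodes a type XI chain of cartilage and eye fibrils, and Col27a1 a chain of thin fibrils in cartilage. Col27a1 measured 29.2, 34.8 and 33.1 FPKM in Con, 26.7, 24.0 and 24.9 in TNF-α and 25.7, 25.1 and 27.3 in TNF-α+WBT. Every Con library lay above every TNF-α and TNF-α+WBT library. Col27a1 fell by 0.36 on the log2 scale with TNF-α (SE 0.07, adjusted p = 0.0246, lower in 3 of 3 libraries), a call lost without Con replicate 2 or 3 or TNF-α replicate 2 or 3 (adjusted p 0.076 to 0.0908), with the 2 groups alone (0.0665), with the replicate number as a block (0.0724) and without the trend (0.0864). In Con the FPKM values of Col11a2 were 6.64, 8.20 and 7.54, in TNF-α 7.10, 6.53 and 6.71 and in TNF-α+WBT 7.15, 7.66 and 6.99. The groups overlapped, and the difference was -0.13 ± 0.08 (SE; adjusted p = 0.53). Col11a1, Col2a1 and Col24a1, which encode further cartilage and bone fibril chains, lay at means of 0.287, 0.131 and 0.0214 FPKM over the 9 libraries, and none of these 3 was called, with Col11a1 and no other of them at an unadjusted p under 0.05.

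Type VI collagen is a heterotrimer of the chains from Col6a1, Col6a2 and usually a longer chain from Col6a3. Values of Col6a1 were 169, 177 and 169.6 FPKM across Con, 262, 274 and 264 across TNF-α and 247, 250.2 and 246 across TNF-α+WBT. The TNF-α libraries were highest, the TNF-α+WBT libraries next and the Con libraries lowest, with no overlap. Col6a2 transcripts stood at 37.3, 41.9 and 37.3 FPKM in Con, 53.9, 54.9 and 56.9 in TNF-α and 52.0, 51.7 and 50.3 in TNF-α+WBT. The order of the groups was the same. Col6a1 rose by 0.63 ± 0.03 (SE) with TNF-α, with the smallest adjusted p among the collagen genes (1.2e-05), and Col6a2 rose by 0.51 ± 0.05 (adjusted p = 0.000594). Both calls were made under each alternative setting. Col6a3 itself measured 3.85, 5.07 and 5.62 in Con, 4.15, 3.16 and 3.96 in TNF-α and 3.48, 3.54 and 3.83 in TNF-α+WBT FPKM. Its Con and TNF-α libraries overlapped (difference -0.35 ± 0.15, SE; adjusted p = 0.312). The ratio of Col6a1 to Col6a3 was 36.3 ± 6.95 in Con, 72.2 ± 12.8 in TNF-α and 68.6 ± 3.92 in TNF-α+WBT (SD, n = 3), while that of Col6a1 to Col6a2 was 4.43 ± 0.182, 4.83 ± 0.173 and 4.83 ± 0.062. Together the 6 type VI genes held 6.82% of collagen FPKM in Con, 9.18% in TNF-α and 8.86% in TNF-α+WBT. Col6a4, Col6a5 and Col6a6 had means of 0.370, 0.0203 and 0.00267 FPKM.

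Col8a1 encodes a chain of type VIII collagen, a short-chain collagen of vessel walls and of the membrane behind the cornea. For Col8a1 the libraries gave 18.8, 20.6 and 19.9 FPKM in Con, 29.6, 30.3 and 29.9 in TNF-α and 27.5, 26.3 and 27.7 in TNF-α+WBT. The 3 groups were apart, in the order TNF-α, TNF-α+WBT and Con from high to low. Col8a1 rose by 0.60 ± 0.04 (SE) with TNF-α (adjusted p = 0.000103), under each alternative setting. Col8a2, which encodes the other type VIII chain, and Col10a1, the type X collagen of hypertrophic cartilage, were near the detection limit, with at most 3.0 and 4.0 estimated fragments per library.

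FACIT collagens bind to the surface of other fibrils. Col12a1 measured 44.7, 48.4 and 46.3 FPKM in Con, 54.7, 55.5 and 55.5 in TNF-α and 55.4, 53.5 and 54.4 in TNF-α+WBT. The Con libraries were lowest and the other groups overlapped. Col12a1, whose product decorates type I fibrils, rose by 0.25 ± 0.04 (SE; adjusted p = 0.00517), a call lost without the trend (adjusted p = 0.0762). In Con the FPKM values of Col16a1 were 26.8, 37.5 and 31.6, in TNF-α 29.2, 30.3 and 28.9 and in TNF-α+WBT 28.9, 34.1 and 27.9. Col16a1, which encodes the type XVI chain, overlapped between all groups (difference -0.11 ± 0.12, SE; adjusted p = 0.758), and its sign turned to 0.02 without Con replicate 2 and to 0.37 in protein-coding transcripts alone. Values of Col9a2 were 0.103, 0.292 and 0.267 FPKM across Con, 0.601, 0.596 and 0.571 across TNF-α and 0.552, 0.187 and 0.238 across TNF-α+WBT. Col9a2, which encodes a chain of cartilage type IX collagen, had all TNF-α libraries above all Con libraries and 1 TNF-α+WBT library near the TNF-α level. With 7.9 to 30.8 estimated fragments per library, its difference of 1.16 ± 0.37 (SE) passed the rule of p and fold but not the adjusted threshold (adjusted p = 0.147). Col9a1, which encodes another type IX chain, differed by 0.83 (adjusted p = 0.0606) and was called with a pseudocount of 1 (0.019) and without the trend (0.0161).

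Among basement membrane genes, Col4a1 and Col4a2 encode the most widespread type IV chains. Col4a1 transcripts stood at 129.7, 134 and 133 FPKM in Con, 141, 147 and 147 in TNF-α and 145, 148 and 141 in TNF-α+WBT. The Con libraries lay below all others, and the treated groups overlapped. For Col4a2 the libraries gave 91.7, 99.6 and 92.4 FPKM in Con, 102, 101 and 104 in TNF-α and 103, 105 and 104 in TNF-α+WBT. This gene had the same order. The differences between TNF-α and Con, 0.13 ± 0.03 (SE; adjusted p = 0.0644) for Col4a1 and 0.12 ± 0.04 (0.137) for Col4a2, were not called. They were called for Col4a1 among genes averaging 1 FPKM or more (adjusted p = 0.0366) and for Col4a2 without Con replicate 2 (0.0387). Col4a5 measured 39.8, 37.7 and 41.6 FPKM in Con, 42.3, 40.2 and 35.8 in TNF-α and 36.8, 38.8 and 38.9 in TNF-α+WBT. For Col4a5, a chain of the basement membranes of kidney and skin, all groups overlapped (difference -0.01 ± 0.06, SE; adjusted p = 0.967). Col4a3, Col4a4 and Col4a6, whose chains have more restricted distributions, had means of 0.0256, 0.114 and 0.0185 FPKM over the 9 libraries.

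Col18a1 encodes the multiplexin from which the fragment endostatin is cut. In Con the FPKM values of Col18a1 were 280.1, 302 and 292, in TNF-α 252, 251 and 257 and in TNF-α+WBT 254, 264 and 256. Every Con library lay above every library of the other groups. Col18a1 fell by 0.20 on the log2 scale with TNF-α (SE 0.04, adjusted p = 0.0137), a call lost without Con replicate 3 or TNF-α replicate 1 or 2 (adjusted p 0.0502 to 0.0587) and without the trend (0.144). A short coding transcript, Col18a1-204, went the other way, with 3.28, 3.87 and 3.52 FPKM in Con, 9.67, 10.9 and 11.9 in TNF-α and 9.89, 14.8 and 9.29 in TNF-α+WBT, so that all Con libraries were lowest, a difference that was not tested. The remaining multiplexin gene, Col15a1, measured 0.446, 0.716 and 0.533 in Con, 0.428, 0.410 and 0.373 in TNF-α and 0.508, 0.715 and 0.566 in TNF-α+WBT FPKM. Its TNF-α libraries were below all others, and the difference from Con was -0.38 ± 0.23 (SE; adjusted p = 0.484). Col7a1, which encodes the anchoring fibril chain of skin, had group means of 4.78, 5.12 and 4.37 FPKM and was called between TNF-α and Con in protein-coding transcripts alone (0.70, adjusted p = 0.0448; 0.10 and 0.751 otherwise), and the transmembrane genes Col13a1, Col17a1, Col23a1 and Col25a1 had means of at most 0.187 FPKM over the 9 libraries.

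Genes of the marker lists also differed between TNF-α and Con, where 2.94% of all tested genes rose and 1.93% fell. The Schwann cell list summed to 954.0, 997.4 and 1009.7 FPKM in Con, 802.6, 839.5 and 776.8 in TNF-α and 852.3, 841.2 and 871.8 in TNF-α+WBT, and 5 of its 12 genes (Ngfr, Cdh19, Erbb3, S100b and Foxd3) fell. The fibroblast list summed to 3846, 3876.5 and 3675 FPKM in Con, 3709.6, 3923 and 3989 in TNF-α and 3903.5, 3781 and 3763 in TNF-α+WBT, with Pdgfrb and Postn called lower. Sums of the chondrocyte list were 23.9, 24.1 and 24.7 FPKM in Con, 20.5, 18.2 and 20.1 in TNF-α and 21.5, 21.5 and 21.3 in TNF-α+WBT, and Sox9 fell. Osteoblast genes summed to 111.9, 110.3 and 111.0 FPKM in Con, 95.9, 89.6 and 91.8 in TNF-α and 101.0, 106.7 and 108.2 in TNF-α+WBT, with Runx2 and Spp1 called lower, and smooth muscle genes to 28.4, 28.0 and 26.8, then 34.6, 38.5 and 33.7, then 30.4, 33.7 and 31.7, with Acta2 called higher. None of the tested macrophage, endothelial or epithelial genes was called by limma. These lists hold 14, 7 and 7 genes, of which 1, 1 and 0 had an unadjusted limma p under 0.05, where 16.1% of all tested genes had such a p. Some genes of the lists did not pass the filter on low values and were not tested. Among them were the 7 macrophage, 1 endothelial and 2 epithelial genes at 0. The part of any of these lists in the collagen differences was not tested.

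The question of the second comparison is what WBT changed in the TNF-α-treated cells. No collagen chain gene was called by limma, with 0 of 42 members past the adjusted threshold and 0 by the rule of p and fold on FPKM + 0.1, against 0.00393% (1 gene) and 1.12% of the 25417 tested genes. At an unadjusted p under 0.05 there were 4 members, Col6a1 (-0.11 ± 0.03), Col8a1 (-0.14 ± 0.04), Col10a1 (near the detection limit) and Col5a2 (-0.09 ± 0.04), with errors as SE, where 6.31% of all tested genes had such a p. Their adjusted p-values were 0.645, 0.674, 0.713 and 0.763, and by the ratio of mean FPKM Col10a1 would pass the rule of p and fold as lower. The TNF-α+WBT libraries lay below all TNF-α libraries for 9 members (Col1a1, Col1a2, Col5a2, Col6a1, Col6a2, Col8a1, Col9a1, Col9a2 and Col10a1) and above them for Col15a1, and 11% of all tested genes did not overlap in one or the other direction. The median log2 fold change was -0.04 over the members, with 12 above 0 and 30 not, and -0.002 over all tested genes. Of the 10 members called between TNF-α and Con, the 8 that rose differed by -0.26 (Col5a3) to -0.02 (Col12a1) in TNF-α+WBT minus TNF-α, while Col27a1 and Col18a1 had 0.05 and 0.03. These comparisons share the TNF-α libraries, so a high or low TNF-α value enters both with opposite sign. For Col5a2 the sign turned in protein-coding transcripts alone (0.03). A p above the threshold does not show that WBT left these genes alone, and 0 members were called with any single library left out.

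Between TNF-α+WBT and Con, 6 members rose, Col5a3 (1.14 ± 0.16, adjusted p = 0.00574), Col6a1 (0.53 ± 0.03, 5.22e-05), Col8a1 (0.46 ± 0.04, 0.000652), Col6a2 (0.40 ± 0.05, 0.00282), Col12a1 (0.23 ± 0.04, 0.0102) and Col5a2 (0.16 ± 0.04, 0.0458), with errors as SE. The multiplexin gene Col18a1 fell by 0.18 (SE 0.04, adjusted p = 0.0328). Among all tested genes 2.31% rose and 1.4% fell. The median over the 42 members was 0.14, with 25 above 0 and 17 not, and 0.00 over all tested genes. Col1a1 (0.19 ± 0.05, SE, adjusted p = 0.107), Col1a2 (0.19 ± 0.04, 0.0562) and Col27a1 (-0.31 ± 0.07, 0.0554) were not called. The calls of Col5a2 and Col18a1 were lost when a library was left out, except Con replicate 2 for Col5a2 and Con replicate 1 for Col18a1 (adjusted p 0.0715 to 0.14 and 0.0552 to 0.108). They were also lost with the replicate number as a block (0.118 and 0.0651), with only the 2 groups compared (0.133 and 0.103) and without the trend (0.266 and 0.232). Col5a2 was not called without the filter (0.0607), with quantile normalization (0.137) or in protein-coding transcripts alone (0.0591) either, and Col12a1 lost its call without the trend (0.113). Without Con replicate 2, Col1a1 (adjusted p = 0.0217), Col1a2 (0.0225) and Col4a2 (0.0299) were called, and Col27a1 was without Con replicate 1 (0.0212), with median centring (0.039), with quantile normalization (0.0373) and in protein-coding transcripts alone (0.0113). Col9a3, a FACIT gene, was called without TNF-α+WBT replicate 2 (1.12, adjusted p = 0.0391; 0.73 and 0.346 with it). Among genes averaging 1 FPKM or more, Col1a1 (0.0438), Col1a2 (0.0262), Col27a1 (0.0331) and Col4a1 (0.0429) were called. Of the marker genes, Ngfr, Cdh19, S100b, Foxd3, Sox9, Runx2, Pdgfrb and Postn were called lower in TNF-α+WBT than in Con, and Vwf, an endothelial gene with at most 23.4 estimated fragments per library, was called higher (1.29, adjusted p = 0.0444). Their part in the collagen differences was not tested. Both this comparison and that of TNF-α with Con use the same Con libraries, so their values are given side by side only.

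Chains that are built into 1 molecule differed in how even their transcript levels were, given here as ratios of FPKM without a test. The ratio of Col1a1 to Col1a2, whose products combine 2 to 1 in type I collagen, was 3.02 ± 0.161 in Con, 3.04 ± 0.0542 in TNF-α and 3.01 ± 0.0829 in TNF-α+WBT (SD, n = 3). That of Col4a1 to Col4a2, which also combine 2 to 1, was 1.40 ± 0.0511, 1.41 ± 0.0361 and 1.39 ± 0.0298. Both ratios differed between groups by less than the spread of the libraries. Col5a2 to Col5a1 was 4.04 ± 0.227 in Con, 5.25 ± 0.184 in TNF-α and 4.95 ± 0.168 in TNF-α+WBT, with the Con libraries below all others. The Col5a2 level in this ratio includes the retained-intron transcript Col5a2-203, with means of 6.29, 50.8 and 16.4 FPKM in the same groups. Col11a2 to Col11a1 was 42.4 ± 0.805, 20.3 ± 5.15 and 22.2 ± 3.70, a ratio that rests on 27.0 to 71.8 estimated fragments of Col11a1 per library, and Col11a1 was not called between TNF-α and Con (adjusted p = 0.175). By class, fibrillar genes held 72.0%, 72.0% and 71.5% of collagen FPKM in the 3 groups, type IV genes 8.43%, 8.08% and 8.39%, multiplexins 9.23%, 7.14% and 7.55%, and short-chain genes 0.625%, 0.843% and 0.795%.

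Collagen chains are modified, folded, cut and crosslinked by other proteins, and are bound by receptors, and 46 such genes were examined. Of the 44 tested, 4 rose with TNF-α and 0 fell by limma, with 14 at an unadjusted p under 0.05, where 16.1% of all tested genes had such a p. Among all tested genes 2.94% rose and 1.93% fell, and of those averaging 5 FPKM or more 9.47% were called in either direction, where 2 of the 33 tested genes of this group with such a mean (Adamts14 and Lox) were called. The median log2 fold change of the 44 genes was 0.06, against 0.003 over all tested genes. Values of Adamts14 were 26.7, 28.5 and 26.7 FPKM across Con, 42.4, 40.8 and 43.7 across TNF-α and 38.7, 41.3 and 40.2 across TNF-α+WBT. Adamts14, a protease that removes the amino-terminal propeptide, rose by 0.63 ± 0.04 (SE; adjusted p = 7.76e-05), without overlap of TNF-α and Con. Lox transcripts stood at 16.3, 17.9 and 15.2 FPKM in Con, 21.9, 20.4 and 20.4 in TNF-α and 21.8, 24.0 and 20.7 in TNF-α+WBT. Lox, the founding lysyl oxidase that crosslinks collagen, rose by 0.34 ± 0.07 (SE; adjusted p = 0.0351), but its call was lost without any one of Con replicate 1 or 3, the 3 TNF-α libraries or TNF-α+WBT replicate 1 (adjusted p 0.0564 to 0.114), with the 2 groups alone (0.0559) and without the trend (0.103). For Loxl4 the libraries gave 3.25, 3.02 and 3.08 FPKM in Con, 5.25, 4.88 and 5.25 in TNF-α and 4.82, 4.10 and 4.49 in TNF-α+WBT. Loxl4, a related oxidase, rose by 0.70 ± 0.08 (SE; adjusted p = 0.00196), again without overlap. Itga2 measured 1.32, 1.40 and 1.37 FPKM in Con, 2.04, 2.32 and 2.40 in TNF-α and 2.05, 2.15 and 2.17 in TNF-α+WBT. Itga2, which encodes the α2 subunit of a collagen-binding integrin, rose by 0.68 ± 0.11 (SE; adjusted p = 0.011), and had adjusted p-values of 0.0504 and 0.0523 without TNF-α replicate 2 or 3.

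Other abundant genes of this group were not called between TNF-α and Con. In Con the FPKM values of Serpinh1 were 131, 132 and 129, in TNF-α 153, 175 and 199 and in TNF-α+WBT 199, 148 and 155. Serpinh1, the collagen chaperone HSP47, had TNF-α libraries above all Con libraries but a wide spread (0.42 ± 0.12, SE; adjusted p = 0.109, and 0.0397 without TNF-α+WBT replicate 1). Values of P4ha2 were 43.6, 52.0 and 40.1 FPKM across Con, 58.5, 75.6 and 53.2 across TNF-α and 57.7, 63.3 and 61.6 across TNF-α+WBT. P4ha2, a catalytic subunit of prolyl 4-hydroxylase, also lay above Con in every TNF-α library (0.46 ± 0.13, SE; adjusted p = 0.115, and 0.0402 with the replicate number as a block). P4ha1 transcripts stood at 110.1, 121 and 104 FPKM in Con, 116, 125 and 120.5 in TNF-α and 125, 136 and 123 in TNF-α+WBT. P4ha1, the related subunit, overlapped between TNF-α and Con (0.11 ± 0.06, SE; adjusted p = 0.46). For Plod2 the libraries gave 81.2, 90.2 and 81.5 FPKM in Con, 89.4, 93.9 and 89.2 in TNF-α and 93.3, 103 and 94.6 in TNF-α+WBT. Plod2, a lysyl hydroxylase, overlapped as well (0.11 ± 0.05, SE; adjusted p = 0.381). Colgalt1, a collagen galactosyltransferase, had an adjusted p of 0.0552, and was called with a pseudocount of 1 (0.0453), among genes averaging 1 FPKM or more (0.0381) and without Con replicate 2 (0.0424). Lair1, an inhibitory collagen receptor with at most 17.3 estimated fragments per library, was lower by the rule of p and fold only (-1.32 ± 0.40, SE; adjusted p = 0.124), and its Con and TNF-α libraries overlapped. With the fold taken as the ratio of mean FPKM, Loxl2 would also pass this rule, as higher (2.35, limma adjusted p = 0.212). This crosslinking gene had at most 23.1 estimated fragments per library.

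For TNF-α+WBT against TNF-α, limma called 0 of the 44 genes, 6 had an unadjusted p under 0.05, and the median was 0.00, where 0.00393% of all tested genes were called and 6.31% had such a p. Ddr2 measured 49.4, 50.8 and 50.5 FPKM in Con, 55.8, 52.0 and 56.3 in TNF-α and 32.9, 48.6 and 29.1 in TNF-α+WBT. Ddr2, a receptor tyrosine kinase activated by fibrillar collagen, was lower in all TNF-α+WBT libraries than in all others, with replicate 2 close to the Con level. The difference was -0.60 ± 0.16 (SE; adjusted p = 0.56), and without TNF-α+WBT replicate 2 it was -0.82 with an adjusted p of 0.00979. Between TNF-α+WBT and Con, Adamts14, Lox, Loxl4 and Itga2 rose and Fkbp10 fell, where 2.31% of all tested genes rose and 1.4% fell. Of these 5 calls, Adamts14 was called under each alternative setting and with each library left out. With only the 2 groups compared, Lox (adjusted p = 0.057), Loxl4 (0.0568), Itga2 (0.0769) and Fkbp10 (0.0806) were not called. Without Con replicate 3 or TNF-α+WBT replicate 1 these 4 were not called either, and further single libraries ended the calls of Itga2 (any Con or TNF-α+WBT library; adjusted p 0.0625 to 0.0867), Lox (Con replicate 1 or TNF-α+WBT replicate 2; 0.0584 and 0.0524) and Loxl4 (TNF-α+WBT replicate 3; 0.051). The call of Itga2 was also lost with the replicate number as a block (0.0633) and that of Lox without the trend (0.0576). Plod2 was called with that block (0.0301) and without Con replicate 2 (0.0451), as was P3h3 without Con replicate 2 (0.0168). Ddr2 was called against Con without TNF-α+WBT replicate 2 (-0.70, adjusted p = 0.00109; -0.48 and 0.18 with it). In Con the FPKM values of Fkbp10 were 97.3, 91.0 and 94.8, in TNF-α 88.5, 83.2 and 82.5 and in TNF-α+WBT 79.7, 81.2 and 85.3. Fkbp10, a prolyl isomerase of the endoplasmic reticulum that assists collagen folding, fell by 0.20 (SE 0.04, adjusted p = 0.0414) and was lower in every TNF-α+WBT library than in every Con library. Its call was made without TNF-α replicate 1 and lost without any one of the other libraries (adjusted p 0.0504 to 0.131), with the replicate number as a block (0.0856), without the filter (0.053) and without the trend (0.21).

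Several collagen genes are neighbours in the genome (positions from GENCODE M21 on GRCm38; the build of the study's quantification is not given in the sources used here). Col4a1 (chr8:11198423-11312826, minus strand) and Col4a2 (chr8:11312805-11449287, plus strand) stand head to head with annotated starts that overlap by 22 bases, and Col4a4 and Col4a3 on chromosome 1 are 71 bases apart in the same arrangement. Col4a6 and Col4a5 on the X chromosome are 1308 bases apart head to head, with Col4a5 at a mean of 39.1 and Col4a6 at 0.0185 FPKM. Col3a1 and Col5a2 on chromosome 1 end 24614 bases from each other on opposite strands, and Col6a2 and Col6a1 follow each other on chromosome 10 with 85161 bases between. Col6a6, Col6a5 and Col6a4 form a further row on chromosome 9. Of the pairs with both members at or above 5 FPKM, Col4a1 and Col4a2 differed by nearly equal amounts between TNF-α and Con (0.13 and 0.12), Col6a1 and Col6a2 both rose (0.63 and 0.51), and Col5a2 rose (0.25) where Col3a1 did not pass the test (-0.03).

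The coding sequences show what the members share beyond their names. A run was counted where a GGN codon, which encodes glycine, recurred every 3 codons in frame, and each such unit of 3 codons was called a triplet. All 44 members had a run of at least 20 triplets, as did 64 of 21747 protein-coding genes in all. Runs of at least 100 triplets occurred in 15 genes, all of them collagen chain genes, and the longest run outside the members was 81 triplets in Marco, a scavenger receptor. Fibrillar genes had longest runs of 216 to 344 triplets, with 344 in Col3a1, 338 in Col1a1, 339 in Col1a2 and Col5a2 and 337 in Col5a3. Col27a1, which fell, had 217, with a separate run of 93 after it. Col6a1 and Col6a2 had 87 each, Col8a1 61, Col4a1 40 in 22 separate runs of at least 6, Col12a1 32 and Col18a1 30.

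**Figure D4:**
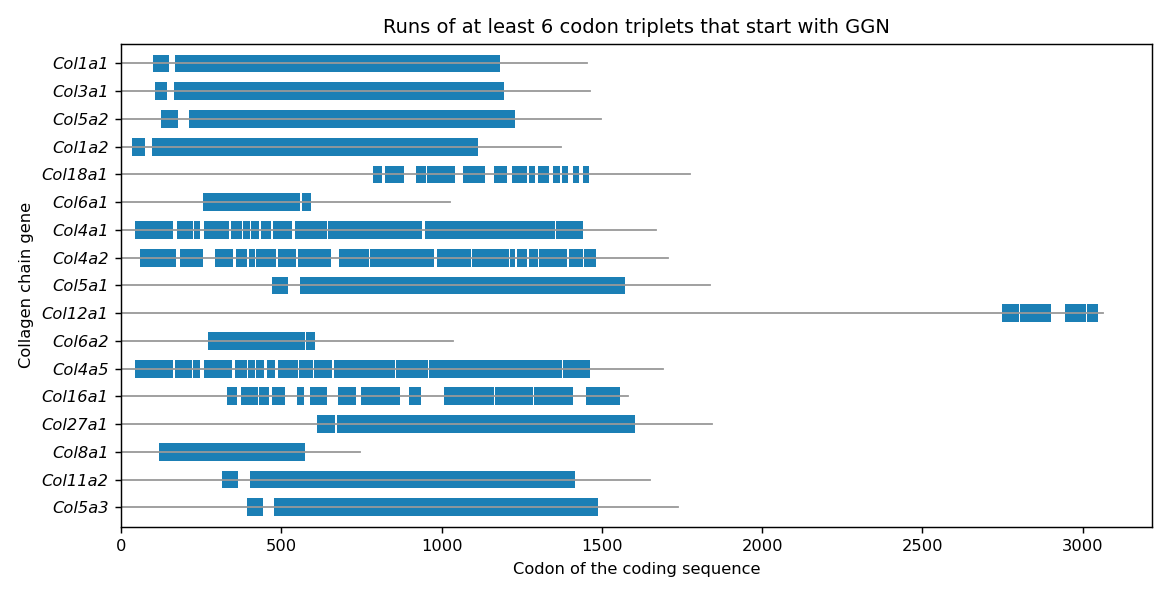
Runs of at least 6 GGN triplets (blue blocks) along the coding sequence (grey line, in codons) of the 17 collagen chain genes averaging 5 FPKM or more, in order of mean level; breaks of a few codons are too narrow to be seen. Fibrillar genes have a shorter block before 1 long block, type IV genes many blocks and Col12a1 short blocks at its end. The long block of Col27a1 holds such a narrow break, between runs of 217 and 93 triplets.

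In fibrillar genes exon lengths follow the same unit. Of 625 inner coding exons of fibrillar genes, 84% had a length that is a multiple of 9 bases and 305 (48.8%) were exactly 54 bases long, against 14.3% and 0.736% of 158440 inner coding exons of all genes. Over the 1910 inner coding exons of all members these shares were 63.8% and 24.6%. All other classes with inner coding exons lay below the fibrillar shares. Type IV genes had 47.2% and 4.23%, multiplexins 37.7% and 5.19%, type VI genes 54.7% and 8.37%, and FACIT genes 55.1% and 26.3%. Transmembrane genes had 68.9% and 9.46%, the type VII gene 65.5% and 5.17%, and Col26a1 with Col28a1 30.2% and 4.65%. Short-chain genes had 0 inner coding exons. To show the unit of the fibrillar chains, 1 exon of 54 bases is printed for the most abundant member, for the member with the largest rise and for a member that fell. They are exon 8 of Col1a1 (chr11:94939904-94939957, plus strand), exon 15 of Col5a3 (chr9:20801068-20801121, minus strand) and exon 7 of Col27a1 (chr4:63245069-63245122, plus strand), all on GRCm38, where exons are counted over the coding part. Capitals mark the GGN codons that start the triplets, and each exon holds whole triplets only.
Col1a1: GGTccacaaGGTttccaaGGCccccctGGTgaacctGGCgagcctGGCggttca
Col5a3: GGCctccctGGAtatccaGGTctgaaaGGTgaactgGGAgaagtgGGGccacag
Col27a1: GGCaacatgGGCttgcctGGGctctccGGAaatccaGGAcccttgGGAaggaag

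Runs of triplets are broken in fibrillar genes too, as in Col27a1 with runs of 217 and 93 triplets. Network and filament collagens also have breaks. The stretches below show 1 such break each in Col4a1 (codons 151 to 184 of Col4a1-201, from the minus strand of chromosome 8), which was not called, and in Col6a1 (codons 546 to 576 of Col6a1-201, from the minus strand of chromosome 10), which rose. Capitals mark the GGN codons of the runs on both sides, and the lower-case part between them holds 10 codons after the last triplet in Col4a1 and 7 in Col6a1. Breaks of this kind make type IV molecules flexible.
Col4a1: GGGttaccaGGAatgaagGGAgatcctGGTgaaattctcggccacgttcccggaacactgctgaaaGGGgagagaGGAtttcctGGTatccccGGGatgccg
Col6a1: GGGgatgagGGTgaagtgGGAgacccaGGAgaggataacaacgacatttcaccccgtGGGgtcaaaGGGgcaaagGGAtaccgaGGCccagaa

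Promoter windows from RefSeq (GRCm38.p6, 250 bases before to 50 after the start) were found for 35 members in 38 entries, and no entry was found for Col1a1, Col2a1, Col4a3, Col5a2, Col9a3, Col12a1, Col14a1, Col22a1 and Col26a1. Both strands were searched for TATAAA, a form of the TATA box, for the promoter element CCAAT and for GGGCGG, the core of GC boxes. Among 32851 windows of all genes 13.6%, 37.4% and 35.7% held them, and among the 38 entries of collagen genes 5, 13 and 23 did. The 250 bases before the start are shown for Col5a3 (chr9:20815068-20815317, minus strand) and Col8a1 (chr16:57754738-57754987, minus strand), which rose, and for the abundant Col3a1 (chr1:45311288-45311537, plus strand), which did not pass the test. Capitals mark the matches, with GGGCGG on the other strand printed as CCGCCC. A match is a description of the letters and not evidence of binding.
Col5a3: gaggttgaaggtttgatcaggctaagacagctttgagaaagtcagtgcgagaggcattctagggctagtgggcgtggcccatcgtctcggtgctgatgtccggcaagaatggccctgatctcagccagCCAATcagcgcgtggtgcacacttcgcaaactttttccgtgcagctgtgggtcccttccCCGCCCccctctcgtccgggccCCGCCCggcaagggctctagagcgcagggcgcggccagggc
Col8a1: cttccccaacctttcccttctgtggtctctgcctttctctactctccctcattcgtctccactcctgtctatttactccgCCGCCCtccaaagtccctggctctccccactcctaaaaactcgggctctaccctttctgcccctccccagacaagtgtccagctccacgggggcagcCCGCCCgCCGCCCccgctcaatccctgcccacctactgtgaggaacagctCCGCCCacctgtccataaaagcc
Col3a1: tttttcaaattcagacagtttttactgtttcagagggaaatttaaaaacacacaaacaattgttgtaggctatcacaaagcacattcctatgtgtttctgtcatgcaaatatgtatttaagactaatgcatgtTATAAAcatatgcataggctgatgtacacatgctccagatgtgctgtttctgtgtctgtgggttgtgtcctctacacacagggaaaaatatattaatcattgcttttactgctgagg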

How the data were processed

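The authors deposited FPKM values per gene and per transcript for 9 libraries, made from TruSeq paired-end poly(A) libraries with HISAT2, StringTie and Ballgown per the workflow of the paper. Versions and genome build are not given in the sources used here. Symbols came from GENCODE M21 (98.0% of genes matched), and Col21a1 had no row. FPKM was compared with limma 3.58.1 (R 4.3.3; lmFit and eBayes with an intensity trend) on log2(FPKM + 0.1) for 25417 genes above 0 FPKM in at least 3 libraries, in 1 model with a mean per group, and p-values were adjusted over all of them. Depth was estimated from the low values of 10678 genes with a single transcript. Of the low values examined, 53.8% to 57.8% were at most 0.1 from a whole number of fragments. Evenly spread values would give 20.0%, but the depth was chosen for a close fit to whole numbers, so this is not its chance level. Members with a mean of at least 5 FPKM, or called with a mean of at least 0.1, were named with all values. The 46 processing and receptor genes and the 8 marker lists (macrophage, fibroblast, Schwann cell, chondrocyte, osteoblast, endothelium, epithelium and smooth muscle) were written from general knowledge, and the level of 1 marker gene is not reported here. Of the processing and receptor genes, those called by adjusted p in any comparison were named, at most 10, and Serpinh1, P4ha1, P4ha2, Plod2, Lox and Ddr2 in any case. Lair1, Loxl2, Colgalt1, P3h3, Col6a3, Col7a1, Col9a1, Col9a3, Col15a1 and the transcripts Col5a2-203 and Col18a1-204 were singled out after their values were seen. The members and lists were chosen with earlier results of these data known. The model was tested on simulated data. Sequences came from GENCODE M21 transcripts and RefSeq GRCm38.p6 promoters, read with Python 3.11.15, pandas 2.3.3 and numpy 2.4.6, and figures were drawn with matplotlib 3.10.9. Alternatives covered the pseudocount, the filter, the trend, the groups in the model, centring, quantile normalization, the replicate block, protein-coding transcripts alone and each library left out.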

Additional observations from a re-analysis of the deposited data

How the results depend on the processing

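The 10 calls between TNF-α and Con became 5 without the intensity trend, 4 of them the same genes (Col5a3, Col6a1, Col6a2 and Col8a1) with Col9a1 added, and 7 to 10 with a library left out. The other alternatives gave 8 to 11, and the cause of these changes was not tested. The 7 calls between TNF-α+WBT and Con became 4 without the trend, 11 among genes averaging 1 FPKM or more, where fewer genes were adjusted for, and 5 to 9 with a library left out. For TNF-α+WBT against TNF-α the count of collagen genes was 0 under all alternatives and with each library left out. Of the processing and receptor genes 2 to 5 were called between TNF-α and Con with a library left out (2 without TNF-α replicate 2 or 3) and 0 to 1 between TNF-α+WBT and TNF-α (Ddr2, without TNF-α+WBT replicate 2). Their 5 calls between TNF-α+WBT and Con, examined after seeing the data, became 3 without the trend, 1 with only the 2 groups compared, and 1 to 5 with a library left out, and this cause too was not tested. The summed collagen level had ratios of 1.09 to 1.15 and 0.957 to 0.974. With the replicate number as a replicate block, the counts were 9 (Col27a1 lost), 0 and 5 (Col5a2 and Col18a1 lost) for the collagen genes and 5 (P4ha2 added), 0 and 4 (Fkbp10 and Itga2 lost, Plod2 added) for the processing and receptor genes. Correlations of same-numbered libraries were between -0.05 and 0.098 and those of other pairs between -0.116 and 0.117. With 3 libraries per group such correlations cannot exclude a pairing, and the sample labels do not say what same-numbered libraries share. For single genes 1677 values under alternatives were computed, of which 1542 kept direction and side of the threshold, 89 lost a call, 19 gained one and 27 turned sign without a call in either. Between TNF-α+WBT and TNF-α, sign turns came to 0.03 for Col5a2, -0.21 for Col16a1, 0.16 for P4ha2 and 0.00 for Col4a1 in protein-coding transcripts alone, an alternative chosen after seeing the data, and to 0.00 for Col4a1 with median centring and 0.00 for Col4a1 and 0.01 for Col5a1 with quantile normalization. In protein-coding transcripts Col16a1 also turned to 0.37 between TNF-α and Con and 0.16 between TNF-α+WBT and Con. With a library left out, differences that turned sign ranged between TNF-α and Con from -0.06 to 0.06 for Col4a5 and -0.22 to 0.02 for Col16a1, between TNF-α+WBT and Con from -0.19 to 0.05 for Col16a1 and -0.11 to 0.04 for Col11a2, and between TNF-α+WBT and TNF-α from -0.01 to 0.00 for Col3a1, -0.02 to 0.02 for Col4a1, -0.03 to 0.02 for Col5a1, -0.11 to 0.01 for Col4a5, -0.05 to 0.09 for Col16a1, -0.13 to 0.13 for P4ha2 and -0.21 to 0.02 for Serpinh1. Depth limits members under 1 FPKM, 5 of which had at most 3 estimated fragments in every library.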
